A study of Mus musculus with 21 samples.

Results

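The genes described here make the oxygen carrier of red blood cells: Hba-a1 and Hba-a2 encode adult alpha-globin, Hbb-bs and Hbb-bt encode adult beta-globin, and Alas2 encodes the erythroid form of the enzyme that starts haem synthesis. They were taken by symbol from the deposited table of counts, and 3 of the 5 have a row among its 24028 rows, namely Hba-a2, Hbb-bs and Alas2. Hba-a1 and Hbb-bt have no row there by symbol or Entrez identifier, and their expression was not analysed here under those names. All 3 rows passed the filter on low counts.

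RNA was sequenced from 21 mammary tumours, 7 in each of 3 groups. Relapse tumours came from animals given BYL719 (alpelisib, an inhibitor of the PI3K alpha kinase) and carry the label relapse, stable tumours came from animals given BYL719 and carry the labels stable and non-Rel, and vehicle tumours came from animals given DMSO. All animals had the genotype WAP-Cre/PIK3CA-H1047R, in which a Cre recombinase under the promoter of a milk protein gene activates mutant PIK3CA, the gene of the catalytic subunit of this kinase, so that controls carried both transgenes too. The labels give no dose, time, age or strain, and the design text calls one treated group responding without saying how that relates to relapse. Whole tumours were ground before extraction, so that RNA of any blood left in the tissue entered the libraries. Libraries held 13337848 to 24873844 counts. The sample titles also carry a code whose meaning is not given. It took 12 values, and 7 codes were shared by at least 2 tumours, so that p-values measure the spread between tumours and some tumours may share an animal.

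Red cells fill with haemoglobin, a tetramer of alpha and beta chains that each hold a haem. They lose their nucleus as they mature, and young circulating red cells, the reticulocytes, still carry globin mRNA for a short time, as well as some mRNA of haem synthesis. Globin mRNA in a solid tissue is therefore widely used as a measure of the blood it holds, while mRNA of membrane proteins and of the transcription factors GATA1 and KLF1 marks nucleated precursors more strongly.

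The promoters of the 3 measured genes are printed because globin genes are a textbook case of shared promoter elements. Each line gives the 250 bases before the RefSeq start of the gene on build GRCm38.p6, read on the strand of the gene, with every match on either strand to 4 motifs in capitals. The motif CCAAT reads as ATTGG on the other strand, the motif CACCC reads as GGGTG there, the motif GATAA reads as TTATC there, and the motif TATAA reads as TTATA there. They stand for the CCAAT box, the CACCC box bound by KLF1, the site of GATA1 and the TATA box. Hba-a2 lies on the plus strand at chr11:32296242-32296491, Hbb-bs on the minus strand at chr7:103827929-103828178, and Alas2 on the plus strand at chrX:150547167-150547416.
Hba-a2: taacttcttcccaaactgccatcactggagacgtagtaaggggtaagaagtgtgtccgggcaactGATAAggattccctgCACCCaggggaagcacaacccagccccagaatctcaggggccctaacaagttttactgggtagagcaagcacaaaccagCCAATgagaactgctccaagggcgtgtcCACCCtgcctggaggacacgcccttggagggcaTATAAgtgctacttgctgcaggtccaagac
Hbb-bs: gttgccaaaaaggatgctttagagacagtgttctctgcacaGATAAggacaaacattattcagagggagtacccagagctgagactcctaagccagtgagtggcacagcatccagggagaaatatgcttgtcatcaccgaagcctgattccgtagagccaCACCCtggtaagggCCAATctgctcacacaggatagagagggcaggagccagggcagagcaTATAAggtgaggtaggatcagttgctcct
Alas2: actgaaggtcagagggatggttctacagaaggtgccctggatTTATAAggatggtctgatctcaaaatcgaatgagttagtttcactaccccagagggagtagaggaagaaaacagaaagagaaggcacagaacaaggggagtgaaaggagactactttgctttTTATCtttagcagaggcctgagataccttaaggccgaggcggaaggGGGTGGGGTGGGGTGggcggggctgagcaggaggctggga
Hba-a2 held all 4 motifs, with TATAA beginning 30 bases and CCAAT 91 bases before the start, and Hbb-bs held all 4, with TATAA at 29 bases and CCAAT at 76 bases. Alas2 held 3 matches to CACCC, 1 to GATAA and 2 overlapping matches to TATAA on opposite strands, and none to CCAAT. Its TATAA matches began 207 and 208 bases before the start, farther from it than those of Hba-a2 and Hbb-bs. The windows of Hba-a1 and Hbb-bt also held all 4 motifs, and the window of Hba-a1 was identical to that of Hba-a2 at 247 of 247 aligned bases. Among 32851 promoter windows of this length, 33.8% held CCAAT, 52% CACCC, 22.6% GATAA and 22.8% TATAA, and 0.968% held all 4. A match is a description of the letters and not a bound site.

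The paired globin genes also share much of their mRNA. Of the 50-base windows in the GENCODE M21 transcript of Hba-a2, 439 of 505 (86.9%) occurred in Hba-a1 as well, and of those of Hbb-bs, 381 of 579 (65.8%) occurred in Hbb-bt. Reads were 50 bases long, per the labels, and no source used here says where a read that fits a pair of genes was counted, so the globin counts are uncertain as measures of a single gene. Alas2 shared 0 of 1988 windows. The table also has a row named Hbb-b2, after the minor adult beta-globin gene of mouse strains with another beta-globin haplotype, which is given beside the members. No source used here says which stretch of the genome that row covers. Whether it holds reads of Hbb-bt, or reads that also fit Hbb-bs, was not tested.

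Adult alpha-globin mRNA was found in every tumour and varied far more between tumours than between groups. Levels are CPM, counts per 1000000 counts of a library total scaled by TMM. Hba-a2 had 22.5 CPM at the lowest, 60.1 at the median and 263 at the highest in relapse tumours, 14.5, 36.2 and 51.4 CPM in stable tumours, and 29.6, 49.2 and 168 CPM in vehicle tumours. Relapse 2 with 263 CPM, vehicle 6 with 168 CPM and relapse 1 with 149 CPM were the 3 highest tumours, and stable 6 and stable 7 with 17 and 14.5 CPM the lowest. All 7 stable tumours lay within or below the range of the other groups, and the ranges of all 3 groups overlapped.

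Beta-globin followed the same order at a lower level. Hbb-bs ran from 2.8 through a median of 7.4 to 40.3 CPM in relapse tumours, from 1.36 through 5.26 to 9 CPM in stable tumours, and from 3.22 through 6.36 to 22.4 CPM in vehicle tumours. The same 3 tumours, relapse 2, vehicle 6 and relapse 1, were highest and the same 2 stable tumours lowest. Hbb-b2 ran from 2.18 to 25.7 CPM in relapse tumours, from 1.86 to 7.04 CPM in stable tumours and from 2.18 to 14 CPM in vehicle tumours. Per kilobase of deposited gene width, the median level was 53.1 CPM for Hba-a2, 11.6 for Hbb-bs and 1.13 for Alas2 in relapse tumours. The deposited width of Hba-a2, 1132 bases, exceeds its 554-base GENCODE transcript. What that width covers is not given, so the value of Hba-a2 on this scale is uncertain.

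Alas2 was detected in every tumour at low counts, from 23 to 194. It ran from 1.35 through a median of 2.24 to 8.65 CPM in relapse tumours, from 0.999 through 1.81 to 2.31 CPM in stable tumours, and from 1.14 through 2.18 to 4.85 CPM in vehicle tumours. Relapse 2 and vehicle 6 were again the highest, followed by vehicle 7 and relapse 1. Stable tumours reached no higher than 2.31 CPM, and most relapse and vehicle tumours lay in the same range.

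**Figure D1:**
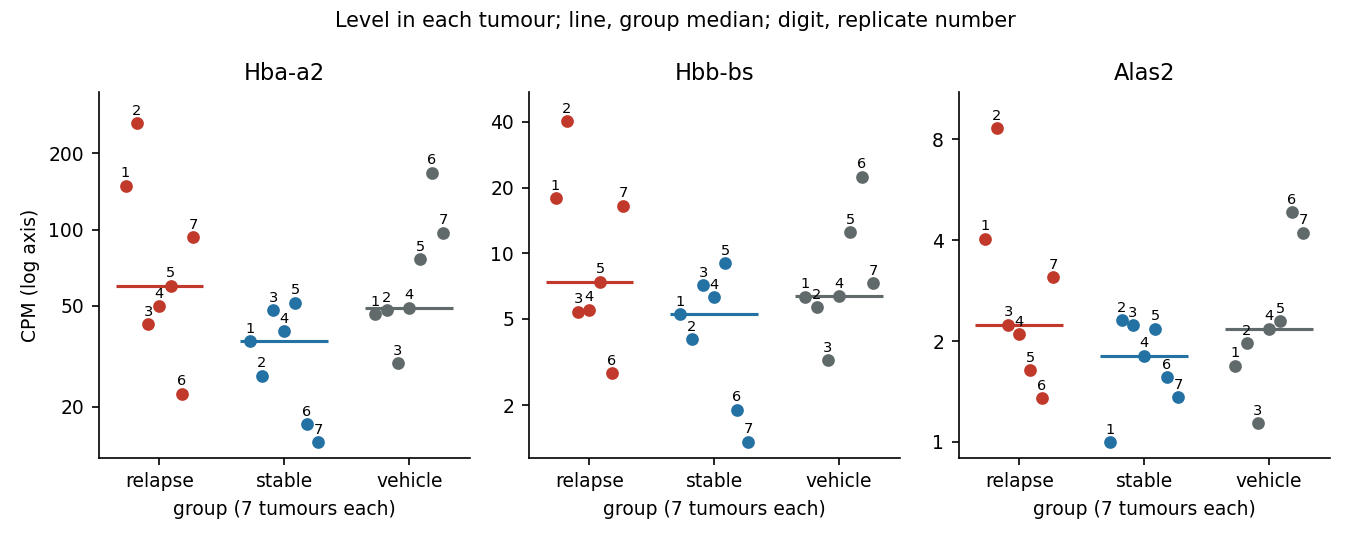
Level of Hba-a2, Hbb-bs and Alas2 (CPM, log axes) in the 7 tumours of each group; points are tumours, digits their replicate numbers and lines the group medians. Relapse 2 is the highest point for all 3 genes, and the ranges of the groups overlap.

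Summed over Hba-a2 and Hbb-bs, globin counts made up 0.00262% to 0.0318% of all counts in relapse tumours, 0.00154% to 0.00642% in stable tumours and 0.00324% to 0.0173% in vehicle tumours. The medians of the summed level were 67.5 CPM in relapse, 41.5 CPM in stable and 55.5 CPM in vehicle tumours. Relapse 1 and relapse 2 together held 63.6% of the globin counts of the relapse group. In bulk RNA, fewer red cells and less globin mRNA per red cell cannot be told apart. On the log2 scale, the SD over the 21 tumours was 1.05 for Hba-a2, 1.13 for Hbb-bs and 0.71 for Alas2, against a median of 0.446 over the 15792 genes tested; these lay at the percentiles 86.7, 88.8 and 71.8.

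Whether relapse and stable tumours differ from vehicle tumours in blood-derived mRNA was tested with edgeR's quasi-likelihood F test and Benjamini-Hochberg adjustment over all genes tested; a gene is called at an adjusted p under 0.05. In relapse against vehicle tumours, 0 of the 3 members were called, where 11.2% of all genes were (5.42% higher and 5.8% lower). Hba-a2 averaged 97.2 ± 84.2 CPM in relapse and 73.6 ± 47.4 CPM in vehicle tumours (SD, n = 7 each), a log2 fold change of 0.40 ± 0.47 (SE; 95% interval -0.58 to 1.38; edgeR adjusted p = 0.629). Hbb-bs averaged 13.7 ± 13.1 CPM in relapse and 9.09 ± 6.49 CPM in vehicle tumours, a log2 fold change of 0.59 ± 0.54 (edgeR adjusted p = 0.52). Alas2 averaged 3.3 ± 2.53 CPM in relapse and 2.62 ± 1.37 CPM in vehicle tumours, a log2 fold change of 0.34 ± 0.39 (edgeR adjusted p = 0.621). These differences were smaller than the spread between tumours and depended on which tumours were kept. Without relapse 2 the log2 fold changes were -0.08 for Hba-a2, 0.02 for Hbb-bs and -0.12 for Alas2 (edgeR adjusted p = 0.929, 0.982 and 0.862). Without vehicle 2, 6 and 7 they were 0.95, 0.948 and 0.857 (edgeR adjusted p = 0.335, 0.432 and 0.269).

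In stable against vehicle tumours, 0 of the 3 members were called, where 15.1% of all genes were (6.9% higher and 8.16% lower). Hba-a2 averaged 33.4 ± 14.5 CPM in stable and 73.6 ± 47.4 CPM in vehicle tumours, a log2 fold change of -1.14 ± 0.48 (95% interval -2.14 to -0.15; unadjusted p = 0.0266 and adjusted p = 0.109 by edgeR). Only 1 of the 7 stable tumours exceeded the vehicle median of Hba-a2. Hbb-bs averaged 4.99 ± 2.77 CPM in stable and 9.09 ± 6.49 CPM in vehicle tumours (log2 fold change -0.87 ± 0.55, edgeR adjusted p = 0.289). Alas2 averaged 1.78 ± 0.497 CPM in stable and 2.62 ± 1.37 CPM in vehicle tumours (log2 fold change -0.56 ± 0.39, edgeR adjusted p = 0.343). Without vehicle 6 the log2 fold change of Hba-a2 was -0.78 (edgeR adjusted p = 0.285) and that of Hbb-bs was -0.45 (edgeR adjusted p = 0.615), and without vehicle 2, 6 and 7, which stood apart in earlier results of these data, that of Alas2 was -0.03 (edgeR adjusted p = 0.974).

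The treated groups lay farthest apart from each other, and no difference passed the adjustment. In relapse against stable tumours 0 of the 3 members were called, where 0% of all genes were, and the DESeq2 Wald test called 8 genes. In edgeR 751 of 15792 genes had an unadjusted p under 0.05, which is no more than that threshold gives when no gene differs. Hba-a2 was higher in relapse tumours by a log2 fold change of 1.54 ± 0.48 (95% interval 0.54 to 2.55; edgeR unadjusted p = 0.00441, adjusted p = 0.99), with 6 of 7 relapse tumours above the stable median. Hbb-bs had a log2 fold change of 1.46 ± 0.55 (edgeR unadjusted p = 0.0158, adjusted p = 0.99) and Alas2 of 0.90 ± 0.39 (edgeR unadjusted p = 0.0335, adjusted p = 0.99). Without relapse 2 the values were 1.06 for Hba-a2, 0.89 for Hbb-bs and 0.44 for Alas2. The comparisons share groups, so their values are not independent.

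**Figure D2:**
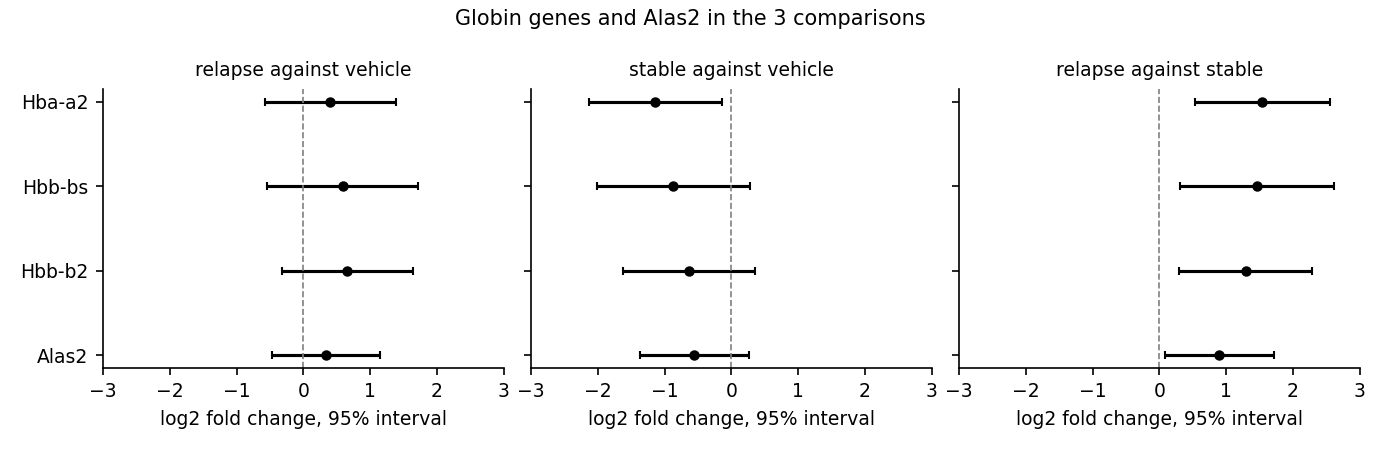
Log2 fold change of the 3 members and Hbb-b2 in the 3 comparisons; points are edgeR estimates and bars 95% intervals, with 7 tumours a group. All intervals of relapse against vehicle include 0, that of Hba-a2 lies below 0 in stable against vehicle, and those of relapse against stable lie above 0 before adjustment.

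The members rose and fell together from tumour to tumour. Over the 21 tumours, log2 CPM of Hba-a2 and Hbb-bs correlated with r = 0.967 and rho = 0.956, Hba-a2 and Alas2 with r = 0.869 and rho = 0.779, and Hbb-bs and Alas2 with r = 0.819 and rho = 0.76. By a two-sided permutation test each r had p = 1e-05, the smallest the 100000 resamples can give, and p = 1.2e-05 after Benjamini-Hochberg adjustment over 6 pairs that include Hbb-b2; the rho values had permutation p of 1e-05, 7e-05 and 0.00012. Without the 2 tumours farthest from the median of the first gene, r was 0.945 (permutation p = 1e-05), 0.767 (permutation p = 0.00023) and 0.741 (permutation p = 0.00039). Over 14 means of tumours sharing a code within a group, r was 0.983, 0.932 and 0.919.

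Within groups, alpha- and beta-globin kept this relation in each, and Alas2 did not pass the test in stable tumours. For Hba-a2 and Hbb-bs, r was 0.987 in relapse (exact permutation p = 0.000198), 0.992 in stable (exact permutation p = 0.000198) and 0.919 in vehicle tumours (exact permutation p = 0.00536). For Hba-a2 and Alas2, r was 0.942 in relapse (exact permutation p = 0.00119), 0.388 in stable (exact permutation p = 0.379) and 0.959 in vehicle tumours (exact permutation p = 0.000198). The difference between groups in r was not tested, and the 7 stable tumours had only 23 to 43 Alas2 counts each.

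Alas2 varied over a narrower range than the globins. The highest tumour exceeded the lowest 29.7-fold for Hbb-bs, 18.1-fold for Hba-a2 and 8.65-fold for Alas2. The slope of log2 level against log2 Hba-a2 was 1.04 for Hbb-bs and 0.589 for Alas2. A straight line of Alas2 on Hba-a2 had 0.691 CPM of Alas2 at 0 CPM of Hba-a2, and 0.92 CPM without relapse 2. Alas2 counts as a share of Alas2 and Hba-a2 counts lay between 2.64% in relapse 1 (95% Clopper-Pearson interval 2.11% to 3.24%) and 8.53% in stable 7 (5.79% to 12%); intervals cover counting error only.

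**Figure D3:**
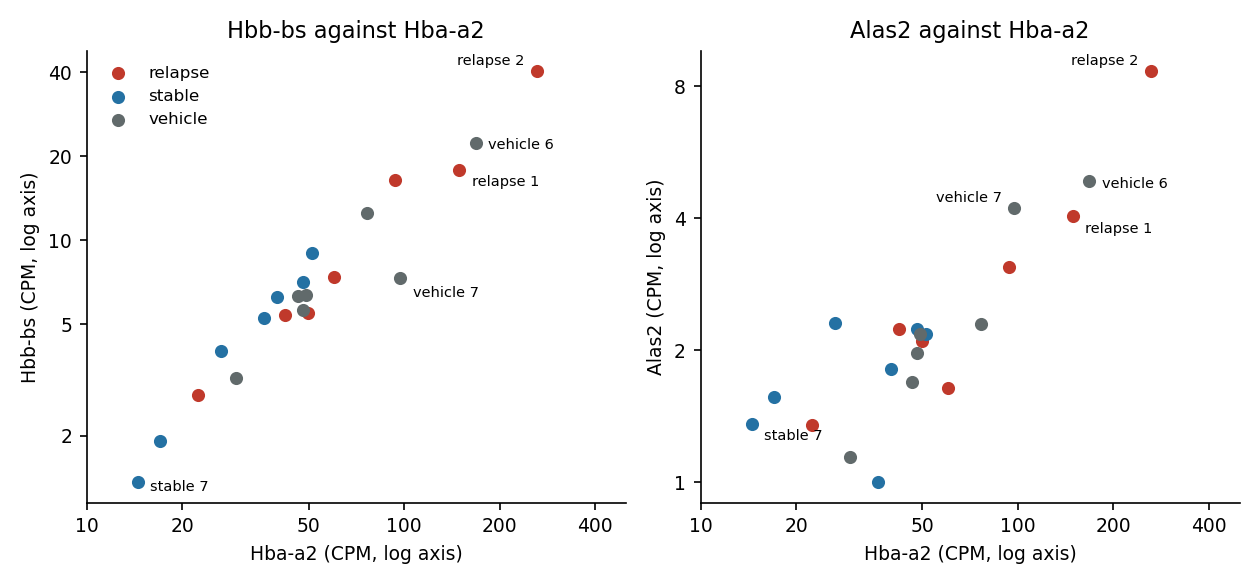
Level of Hbb-bs and of Alas2 against Hba-a2 (CPM, log axes), one point per tumour, coloured by group. Hbb-bs follows Hba-a2 closely apart from vehicle 7, while Alas2 changes less steeply, with stable tumours between 0.999 and 2.31 CPM.

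The ratio of Hba-a2 to Hbb-bs counts, which leaves out the Hbb-b2 row, was steadier than either level. Hba-a2 counts were 5.66 to 9.08 times Hbb-bs counts in relapse tumours, 5.71 to 10.7 times in stable tumours and 6.12 to 13.3 times in vehicle tumours. Vehicle 7 was the highest: Hbb-bs made up 6.97% of the 2 genes' counts there (95% Clopper-Pearson interval 5.89% to 8.19%), against a median of 11.5% over all tumours. Hbb-b2 made up 38.6% to 59.7% of the counts of both beta-globin rows, with medians of 42.5% in relapse, 43.9% in stable and 40.4% in vehicle tumours.

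Tumours that share a title code could be compared with each other. In the 7 codes with several tumours, the highest Hba-a2 level was 1.04 to 2.2 times the lowest, against 18.1 times over all tumours; whether so few tumours a code would give this by themselves was not tested. Relapse 5 and stable 5 share a code and had 60.1 and 51.4 CPM of Hba-a2, and relapse 6 and stable 7 share another and had 22.5 and 14.5 CPM. Vehicle 5, 6 and 7 share a code and were the 3 highest vehicle tumours, with 76.5, 168 and 97.4 CPM. Tumour code and group cannot be fully told apart, since 2 codes occurred in both treated groups and none in treated and vehicle tumours alike.

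Genes of nucleated red cell precursors were near the detection limit in most tumours, and the tumour with the most globin was not the one with the most Slc4a1 and Hemgn mRNA. Slc4a1, the band 3 anion exchanger of the red cell membrane, had 84 counts in vehicle 6, 24 in vehicle 7, 15 in vehicle 5 and 13 in relapse 2, and at most 8 in any other tumour. Hemgn, an erythroid nuclear protein gene, had 14 counts in vehicle 6 and at most 4 elsewhere. In relapse 2, which held the most globin, Slc4a1 had 13 and Hemgn 2 counts. Set against alpha-globin, Slc4a1 had 2.2 counts per 1000 of Hba-a2 in relapse 2, against 23.3 in vehicle 6 and 13.1 in vehicle 7.

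Gata1 and Klf1, the transcription factors of erythroid genes, had at most 3 and 9 counts in any tumour, and Epor, the erythropoietin receptor, at most 14. The other globin genes, embryonic or minor, had at most 7 counts in any tumour apart from Hbb-b2.

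**Figure D4:**
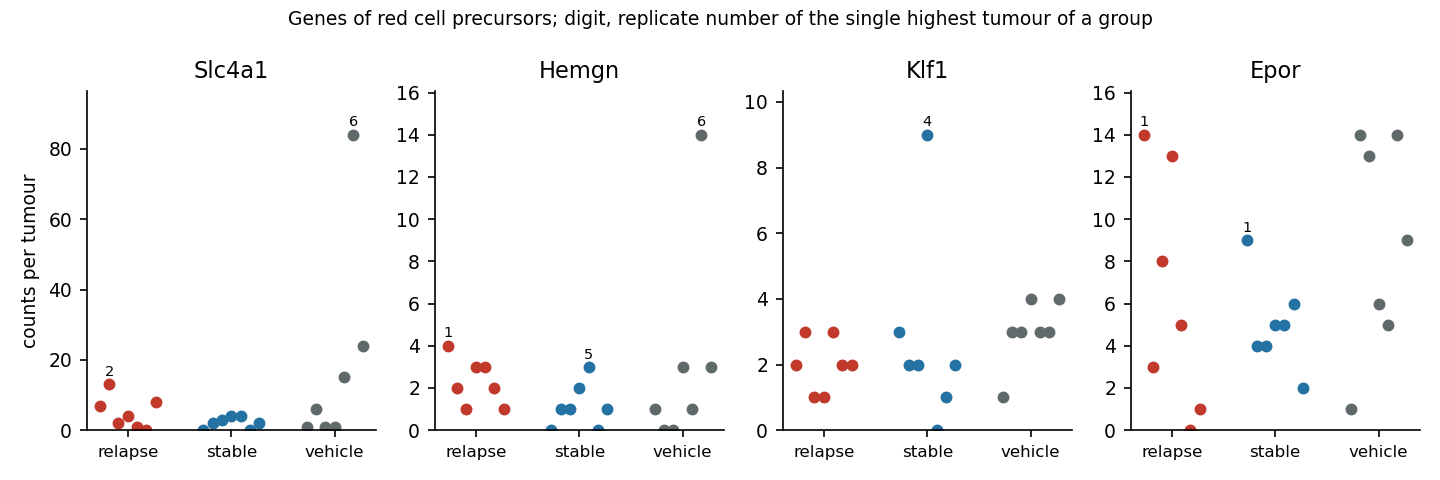
Counts of Slc4a1, Hemgn, Klf1 and Epor in each tumour (linear axes from 0), by group; a digit gives the replicate number of the single highest tumour of a group. Vehicle 6 is the highest tumour for Slc4a1 and Hemgn, and Klf1 and Epor reach at most 9 and 14 counts.

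Among the other genes of haem synthesis, Alas1 stood out, the housekeeping counterpart of Alas2 that is made in most cells. It was lower in both treated groups, with 34.5 ± 6.81 CPM in relapse and 52.9 ± 17.5 CPM in vehicle tumours (log2 fold change -0.62 ± 0.17, edgeR adjusted p = 0.021), and 29.5 ± 2.87 CPM in stable tumours (log2 fold change -0.84 ± 0.17 against vehicle, edgeR adjusted p = 0.00335). All 7 stable tumours lay below all vehicle tumours. The relapse call was lost in 5 of 10 other fits, with an edgeR adjusted p of 0.113 without vehicle 2, 6 and 7; the stable call was made in all of them. Of the 8 genes of the list, 0 were called higher and 1 lower in each comparison with vehicle, where 5.8% and 8.16% of all genes were called lower, with median log2 fold changes of -0.05 in both, against -0.02 and -0.005 over all genes. Alad, which makes porphobilinogen, had a log2 fold change of -0.38 (edgeR adjusted p = 0.165) in relapse and -0.49 (edgeR adjusted p = 0.0626) in stable against vehicle tumours.

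Of the transcription factor list, 3 of 7 genes passed the filter. Zfpm1, the GATA1 partner also known as FOG1, fell in stable tumours, to 5.78 ± 1.33 CPM against 8.16 ± 1.55 CPM in vehicle tumours (log2 fold change -0.50 ± 0.17, edgeR adjusted p = 0.0483); the call held in 4 of the 21 fits that left out a tumour, with an adjusted p of up to 0.0892, and not without vehicle 2, 6 and 7 (edgeR adjusted p = 0.109). Tal1 and Lmo2 were not called in any comparison. Of 9 late erythroid and reticulocyte genes tested, 0 were called in relapse and 1 in stable against vehicle tumours, where 11.2% and 15.1% of all genes were. That one, Mkrn1, a ubiquitin ligase gene transcribed in many tissues, averaged 106 ± 13.8 CPM in stable and 71.7 ± 9.01 CPM in vehicle tumours (log2 fold change 0.56 ± 0.09, edgeR adjusted p = 0.000959). Bpgm, which makes the red cell metabolite 2,3-bisphosphoglycerate, averaged 62 ± 33.4 CPM in relapse, 43.6 ± 8.96 CPM in stable and 49 ± 16.9 CPM in vehicle tumours and was not called.

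Of 9 red cell membrane genes tested out of 16 with a row, 1 was called in relapse and 0 in stable against vehicle tumours, where 11.2% and 15.1% of all genes were, and the one was Ank1. Ank1 encodes ankyrin 1, which anchors the skeleton of the red cell membrane and has a short form in skeletal muscle. It averaged 9.14 ± 5.44 CPM in relapse and 1.45 ± 0.496 CPM in vehicle tumours (log2 fold change 2.65 ± 0.53, edgeR adjusted p = 0.00554), and 3.52 ± 3.92 CPM in stable tumours (log2 fold change 1.28 ± 0.52 against vehicle, edgeR adjusted p = 0.097). Skeletal muscle genes moved with the same groups: 11 of 12 listed markers were called higher in relapse tumours (Mb, Ckm, Acta1, Myh1, Myh2, Myh4, Tnnt3, Tnnc2, Mylpf, Ttn and Neb) and 7 of 12 in stable tumours (Myh2, Myh4, Tnnt3, Tnnc2, Mylpf, Ttn and Neb), and the list summed to 280 to 28800 CPM in relapse, 482 to 19500 CPM in stable and 252 to 1360 CPM in vehicle tumours. Their part in the Ank1 result was not tested. Without vehicle 2, 6 and 7 none of the muscle calls was made in either comparison, with log2 fold changes of 1.32 for Acta1 to 4.63 for Myh2 in relapse tumours, while Ank1 was called in relapse tumours (edgeR adjusted p = 0.0457). In the main fit the 12 muscle markers had log2 fold changes of 1.41 to 5.35 in relapse tumours. The fit without vehicle 2, 6 and 7 has fewer vehicle tumours and called 527 genes in relapse against vehicle, where the main fit called 1772. A call lost in that fit does not alone show a smaller difference. The Ank1 call was lost when tumours of a group that share a code were added together (log2 fold change 2.65, edgeR adjusted p = 0.0547). In stable against vehicle tumours each of the 7 muscle calls was also lost in at least 5 of the 21 fits that left out a tumour, for Neb without stable 5 or vehicle 2, 3, 6 or 7, and the Mb call of relapse tumours was lost in all but 9.

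Contractile genes of myoepithelial and smooth muscle cells went the other way. Acta2, Cnn1, Myh11, Tagln, Mylk and Lmod1 were lower and Des, which skeletal muscle also expresses, was higher in relapse and in stable than in vehicle tumours, and the list summed to 298 to 704 CPM in relapse, 162 to 713 CPM in stable and 147 to 22800 CPM in vehicle tumours. The sums were 17000, 22800 and 9640 CPM in vehicle 2, 6 and 7, against 147 to 426 CPM in the other vehicle tumours. None of the lower calls was present without vehicle 2, 6 and 7, where the log2 fold change of Acta2 was 0.28 in relapse and -0.31 in stable against vehicle tumours (edgeR adjusted p = 0.748 and 0.69). Des was called there in relapse tumours (log2 fold change 4.07, edgeR adjusted p = 0.0464) and not in stable tumours (log2 fold change 2.29, edgeR adjusted p = 0.167), and its stable call was also lost without stable 5 or vehicle 6 and in 5 of 10 other fits. Of 9 mammary epithelial markers, 1 was called in relapse and 0 in stable against vehicle tumours, where 11.2% and 15.1% of all genes were. Wap, a milk protein gene, was higher in relapse tumours (log2 fold change 4.32 ± 1.25, edgeR adjusted p = 0.0303), and was not called without relapse 3 or vehicle 2, 6 or 7, with an adjusted p of up to 0.124.

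Hp and Slc40a1, of the list of haemoglobin and haem clearance, changed in both treated groups. Hp, haptoglobin, which binds free haemoglobin, fell to 246 ± 141 CPM in relapse tumours, against 695 ± 299 CPM in vehicle tumours (log2 fold change -1.50 ± 0.38, edgeR adjusted p = 0.0149), and to 172 ± 72.2 CPM in stable tumours (log2 fold change -2.01 ± 0.38, edgeR adjusted p = 0.00248), with all stable below all vehicle tumours. Slc40a1, the iron exporter ferroportin, rose to 74.2 ± 18.7 CPM in relapse tumours, against 36.1 ± 13.1 CPM in vehicle tumours (log2 fold change 1.04 ± 0.26, edgeR adjusted p = 0.0149), and to 67.3 ± 23.8 CPM in stable tumours (log2 fold change 0.90 ± 0.26, edgeR adjusted p = 0.0261). The stable call of Slc40a1 was lost without stable 2, stable 6 or vehicle 6, with an adjusted p of up to 0.0589. Without vehicle 2, 6 and 7 the relapse calls of Hp and Slc40a1 and the stable call of Slc40a1 were lost (edgeR adjusted p = 0.077, 0.128 and 0.202), and the stable call of Hp was not (adjusted p = 0.0176).

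Slc48a1, a haem transporter gene, fell to 29.9 ± 4.89 CPM in stable tumours, against 47.7 ± 21.8 CPM in vehicle tumours (log2 fold change -0.68 ± 0.23, edgeR adjusted p = 0.0484), a call that held in 5 of the 21 fits that left out a tumour. Without vehicle 2, 6 and 7 its log2 fold change was -0.16 (edgeR adjusted p = 0.648). Hmox1, haem oxygenase, averaged 27.4 ± 8.37 CPM in relapse, 23.3 ± 8.01 CPM in stable and 31.1 ± 7.09 CPM in vehicle tumours and was not called. Cd163, the macrophage receptor for haemoglobin bound to haptoglobin, averaged 25.7 ± 8.34 CPM in relapse and 11.5 ± 4.13 CPM in vehicle tumours (log2 fold change 1.16 ± 0.41, edgeR adjusted p = 0.0678). Over the 10 genes tested, 1 was called higher and 1 lower in relapse tumours, and 1 higher and 2 lower in stable tumours, where over all genes 5.42% and 5.8% were called higher and lower in relapse tumours and 6.9% and 8.16% in stable tumours. The list had medians of -0.11 and 0.07 on the log2 scale.

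**Figure D5:**
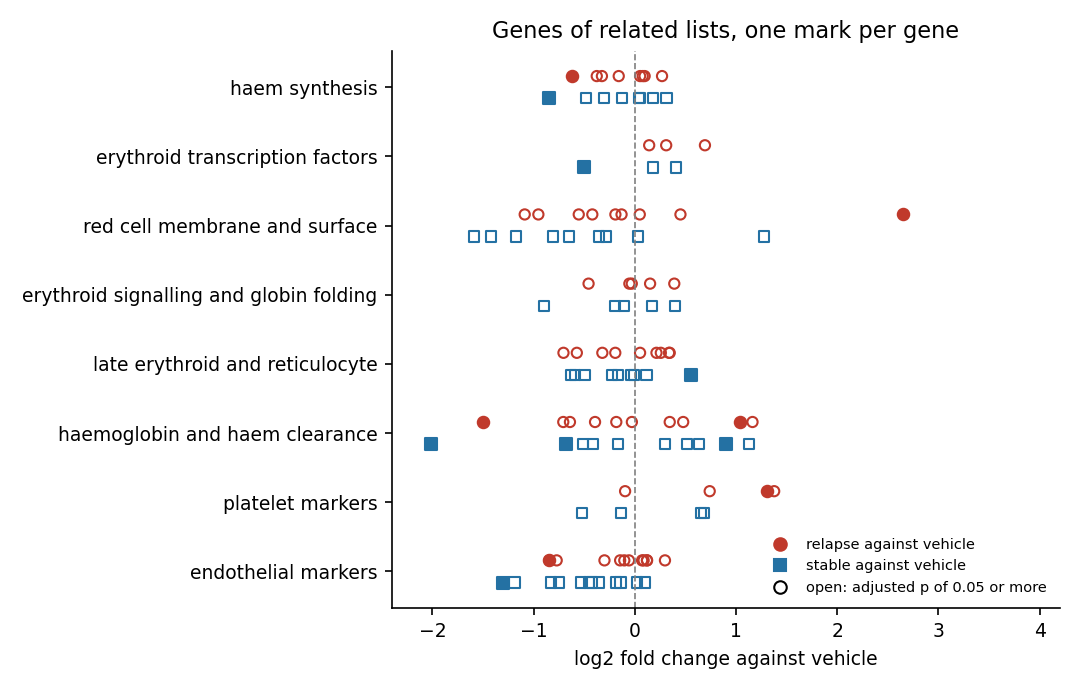
Log2 fold change of each tested gene of 8 related lists in relapse against vehicle (circles) and stable against vehicle tumours (squares); filled marks passed an adjusted p of 0.05 in edgeR. Few marks are filled: Alas1, Ank1, Hp, Slc40a1, Pf4 and Flt1 in relapse, and Alas1, Zfpm1, Mkrn1, Hp, Slc48a1, Slc40a1 and Flt1 in stable tumours.

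Markers of other blood and vessel cells were set beside alpha-globin, an analysis added after the data were seen. The mean log2 level of the 12 endothelial markers correlated with Hba-a2 over the 21 tumours with r = 0.538 (permutation p = 0.0118, adjusted p = 0.0353 over 3 lists) and rho = 0.588 (permutation p = 0.00595). Without relapse 2 and vehicle 6, r was 0.38 (permutation p = 0.107), and the relation did not pass the test there, although r kept its sign. Within groups r was 0.719 in relapse, 0.372 in stable and 0.479 in vehicle tumours (exact permutation p = 0.073, 0.422 and 0.276). For the 4 platelet markers tested r was 0.426 (permutation p = 0.0545) with rho = 0.377 (permutation p = 0.0938), and without relapse 2 and vehicle 6 r was 0.162 (permutation p = 0.508). For the 8 neutrophil markers tested, of 11 with a row, r was -0.202 (permutation p = 0.38) with rho = -0.23 (permutation p = 0.316), and -0.0971 (permutation p = 0.692) without those tumours. The neutrophil list includes Ltf, with 255 to 11600 CPM in vehicle tumours, and which cells made it was not tested.

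Of the 12 endothelial markers, 0 were called higher and 1 lower in each comparison with vehicle, where 5.8% and 8.16% of all genes were called lower, with median log2 fold changes of -0.08 in relapse and -0.44 in stable against vehicle tumours. In relapse tumours the log2 fold changes ran from -0.85 to 0.30. Flt1, a receptor for vascular endothelial growth factor, was lower in both treated groups, with 77 ± 22.1 CPM in relapse and 139 ± 24 CPM in vehicle tumours (log2 fold change -0.85 ± 0.20, edgeR adjusted p = 0.00962), and 56.3 ± 15.2 CPM in stable tumours (log2 fold change -1.30 ± 0.20, edgeR adjusted p = 0.000632). Of the 4 platelet markers tested, 1 was called in relapse and 0 in stable against vehicle tumours, where 11.2% and 15.1% of all genes were. Pf4, platelet factor 4, which some macrophages also make, averaged 4.38 ± 2.09 CPM in relapse and 1.77 ± 0.375 CPM in vehicle tumours (log2 fold change 1.31 ± 0.38, edgeR adjusted p = 0.0299). The Pf4 call was lost without relapse 2, relapse 3, relapse 4, vehicle 3 or vehicle 7, with an adjusted p of up to 0.0729. Without vehicle 2, 6 and 7 the relapse calls of Flt1 and Pf4 were lost (edgeR adjusted p = 0.0799 and 0.0982), while Flt1 stayed called in stable tumours (adjusted p = 0.00731). Ppbp, another platelet chemokine gene, had a log2 fold change of 1.38 ± 0.59 in relapse against vehicle tumours (edgeR adjusted p = 0.135).

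The genes whose level over the 21 tumours was most like the mean log2 CPM of the 3 members were found among 12840 genes. Hbb-b2 came first (r = 0.955), and whether its row shares reads with the member Hbb-bs was not tested. Rbm38 (r = 0.725), an RNA-binding protein gene, and Nkd1 (r = 0.704), an inhibitor of Wnt signalling, came next at some distance. Sox12, Ndrg3, Tfeb, Ctla2a, Hdgfrp2 and Sytl2 followed, down to r = 0.652. Without relapse 2, r was 0.936 for Hbb-b2, 0.673 for Rbm38 and 0.548 for Nkd1. Of these genes, Tfeb, a transcription factor of lysosomal genes, was called lower in stable against vehicle tumours (log2 fold change -0.79, edgeR adjusted p = 0.0175), and no other was called in any comparison. They were ranked on these same tumours, so that their r values are a description.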

How the data were processed

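Stranded mRNA libraries of ground tumours were read as single 50-base ends, per the labels' protocols. The authors deposited whole-number counts per gene for 21 tumours, with no normalization; the submitters' processing notes name STAR 2.5.2a, SAMtools 1.3.1, Picard 2.9.2, edgeR and build mm10, while no source used here gives the annotation, the strand setting or the treatment of shared reads. Another column, width, gives a gene length in bases. Only the last 25 cells of a row were used, since 10202 rows held an extra leading cell; 0 count columns were left unused.

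Groups came from sample titles. filterByExpr by group kept 15792 genes; TMM factors and edgeR 4.0.16 (R 4.3.3) were used on all 21 tumours, with no covariates. Closest tumours of a group differed by a chi-square per degree of freedom of 18.6. Correlations used log2 CPM (prior count 2) and SciPy 1.17.1; exact tests enumerated 5040 pairings. Scripts were tested on simulated data. Alternatives included limma 3.58.1 and DESeq2 1.42.0. Promoters are from RefSeq, GRCm38.p6.

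Members, lists and tests were chosen with earlier results of these data known. List genes that were called are named, as are the 10 genes most like the members, predicted and immunoglobulin genes aside, among those whose log2 CPM averaged 1 or more; other list genes were picked after their values were seen. A few genes within these rules are not reported here.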

Additional observations from a re-analysis of the deposited data

Results flagged for a closer look

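Within groups of 7 tumours, 69 gene and group combinations were checked for a single tumour far from the others, and 4 were found. They cover only part of the genes named here, and the other named genes were not checked in this way. Chance alone gives about 1 in 20. The measure is the gap to the nearest tumour divided by the range of the group and was compared with the 95% critical value of Dixon's test. None concerned Hba-a2, Hbb-bs or Alas2. Cd163 in stable 5 had 85.8 CPM, against a median of 14.8 CPM in the other stable tumours (0.707). Hmox1 in vehicle 6 had 16.9 CPM, against a median of 33.3 CPM in the other vehicle tumours (0.604). Flt1 in stable 1 had 27.2 CPM, against 60.2 CPM in the others (0.58). Mkrn1 in vehicle 6 had 90.6 CPM, against 67.2 CPM in the others (0.579).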

How the results depend on the processing

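Of 279 results for Hba-a2, Hbb-bs and Alas2 under alternatives, 0 were called and 277 kept their direction; in relapse against vehicle, Hba-a2 (-0.083) and Alas2 (-0.117) reversed without relapse 2, with log2 fold changes of -0.083 to 0.733 and -0.117 to 0.543 over the fits that left out 1 tumour. The correlations between members stayed past the threshold in all 3 alternatives, and group medians of summed globin level moved by less than the spread between tumours. Genes called in relapse against vehicle were 987 with the replicate block, 955 with counts summed per title code, 527 without vehicle 2, 6 and 7, 2870 with DESeq2, and 1156 to 2671 leaving out 1 tumour. Genes called in stable against vehicle were 1251 with the replicate block, 964 with only the 2 groups, 592 summed per code, 847 without vehicle 2, 6 and 7, and 1470 to 3272 leaving out 1 tumour. In relapse against stable they were 8 with DESeq2 and 0 to 4 leaving out 1 tumour. Among the fits that left out 1 tumour, the lowest relapse against vehicle counts were 1156 without vehicle 6 and 1160 without vehicle 2, and the highest was 2671 without stable 1. Without vehicle 2, 6 and 7, log2 fold changes of relapse against vehicle reversed for Acta2 (0.283), Cnn1 (0.366), Myh11 (0.36), Tagln (0.82), Mylk (0.197) and Lmod1 (0.514), and of stable against vehicle for Myh11 (0.059), Tagln (0.315) and Lmod1 (0.392). With voom and quality weights, Tagln (0.094) and Lmod1 (0.005) reversed in relapse against vehicle. Adding together tumours of a group that share a code ended the relapse against vehicle calls of Alas1, Ank1, Hp, Pf4, Wap and 7 muscle genes, and the stable against vehicle calls of Slc40a1, Des, Zfpm1, Slc48a1 and all 7 muscle genes. The cause was not tested. Replicate numbers did not pair the tumours: in 21 pairs of same-numbered tumours the correlation of deviations was -0.258 to 0.358, over 0.1 in 3, and 2 tumours correlated best with their own number. Globin-free library sizes left out the 3 measured adult globin rows, and 6 pairs rather than 10 were correlated, since only 3 of 5 members have a row. The low counts of Alas2 limit its precision.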
